A study of Mus musculus with 47 samples.

Results

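Interferon response and antigen presentation genes were followed through RNA-seq of dox-inducible C2C12 lines. The group holds 33 genes, taken by gene symbol, of the 45706 genes in the deposited tables. It comprises 3 sensors of foreign RNA, 4 transcription factors, 6 regulators, 12 antiviral effectors, 7 genes of antigen processing and presentation and 1 chemokine. C2C12 is an immortalized mouse myoblast line that leaves the cell cycle and fuses into myotubes when serum is withdrawn. C2C12 iMyoD1 keeps its endogenous MyoD1 and carries a Halo-MyoD1 transgene under the dox-responsive TRE3G promoter. It was profiled at 0 h (growth medium, with dox for 24 h) and after 24, 48 and 120 h of serum withdrawal, with dox added when serum was withdrawn. At 120 h the culture was taken whole, or separated by a cell strainer into a myoblast-enriched flow-through and a myotube-enriched retentate. C2C12 iCdh23 and C2C12 iMcam, labelled as inducible for the adhesion molecules Cdh23 and Mcam, were profiled at 48 h. Every condition was sampled with dox and untreated, which gave 16 groups and 47 libraries with 3 biological replicates each, except 2 for the dox-treated myoblast-enriched fraction (numbered 2 and 3). All 3 lines carry a transposon-borne transgene and were selected with puromycin. No dox-treated line that lacks a transgene was analysed here, so dox itself and the induced gene cannot be told apart in any comparison below.

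Type I interferon binds a receptor at the cell surface, and the kinases attached to it phosphorylate transcription factors such as Stat2, which acts with Irf9 in a complex that binds interferon response elements upstream of its target genes. Among the targets are the RNA sensors Ifih1 and Ddx58, the factor Irf7, which drives further interferon production, and antiviral effectors such as the Ifit, Oas and Gbp families. Interferon also raises the machinery of MHC class I, in which immunoproteasome subunits cut peptides, Tap1 and Tapbp load them, and H2-K1 or H2-D1 carries them to the surface with B2m. Resting skeletal muscle fibers are known for very low MHC class I, and its upregulation there is a hallmark of inflammatory myopathy.

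Libraries held 15066362 to 50950707 estimated counts (median 22837955). Levels are given as CPM, a gene's count relative to the TMM-scaled library size. Defining markers of the cells that commonly carry these genes were close to 0. Ptprc and Adgre1, defining markers of leukocytes and macrophages, reached at most 0.233 and 0.0713 CPM, and the summed level of 2 T cell markers lay between 0 and 0.049 CPM. The summed level of 5 macrophage markers was between 0.854 and 6.52 CPM in 46 libraries and 16.9 CPM in replicate 1 of the dox-treated myotube-enriched fraction. In C2C12 iMyoD1 this sum was higher with dox, without overlap, at 0 h (3.598 to 4.775 CPM against 2.13 to 3.11 CPM) and 48 h (3.50 to 5.06 CPM against 2.43 to 3.19 CPM), and the groups overlapped at 24 h, in whole cultures at 120 h and in the other lines. Of its genes Lyz2, which encodes lysozyme, rose with dox in C2C12 iMyoD1 from 0.325 to 1.65 CPM at 24 h (edgeR adjusted p = 0.000132) and from 0.143 to 1.54 CPM in whole cultures at 120 h (0.00417), and also at 0 and 48 h (0.0177 and 0.00492). The part of these markers in the members' changes was not tested. The induced gene was looked up in each line. In C2C12 iMcam, dox-treated cultures held 71.3 ± 2.79 CPM of Mcam and untreated ones 17.9 ± 1.44 CPM (SD, n = 3 each). In C2C12 iCdh23, dox-treated cultures held 482 ± 76.8 CPM of Cdh23 and untreated ones already 385 ± 52.6 CPM (SD, n = 3 each). These Cdh23 groups overlapped (566.1, 415.7 and 464.2 CPM against 368.5, 342.7 and 444.0 CPM), so induction of Cdh23 is not shown by these counts. Myod1 did not rise with dox in C2C12 iMyoD1 (192 against 181 CPM at 0 h, 304 against 388 CPM at 48 h), so these counts do not check the labels of that line.

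A pair of libraries stood against their labels. In the myotube-enriched fraction, the library labelled dox replicate 2 held 0.713 CPM of Irf7 against 9.18 and 6.15 CPM in the other dox libraries, and the library labelled untreated replicate 2 held 4.57 CPM against 1.14 and 1.01 CPM in the other untreated ones. Myog, a myotube marker, was at 1993 CPM in that dox library against 574 and 364 CPM, and at 437.5 CPM in that untreated library against 966 and 1718 CPM. Mcam was displaced like Irf7, at 12.36, 1.274 and 15.03 CPM in dox replicates 1 to 3 and at 3.417, 16.56 and 3.074 CPM in the untreated ones. The other 4 myotube markers did not stand apart in this way, and the summed level of all 5 was 10930 CPM in that untreated library against 10080 and 16840 CPM, and 14430 CPM in that dox library against 11020 and 4128 CPM. These libraries were singled out after their values of Irf7 were seen. Both libraries were kept as labelled, and the counts of calls on the myotube-enriched fraction are given with and without them.

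Interferon response elements could be read in the promoters of the group. RefSeq promoters on GRCm38.p6, from 250 bases before to 50 bases after each gene's start, were available for 29 of the 33 members (not Usp18, Parp9, Parp14 or Rtp4). The core of the element, GAAANNGAAA, was searched on both strands, and 13 of the 29 members (44.8%) held it, against 3.99% of all 27025 genes with a promoter. The STAT site TTCNNNGAA, which is its own reverse complement in letters, was present in 6 of the 29 members (20.7%) and in 9.55% of all genes. The 6 windows below show the element in members that the results return to, 5′ to 3′ on the strand of the gene. Capitals mark complete GAAANNGAAA cores, which appear as their reverse complement where the match lies on the opposite strand.
Isg15: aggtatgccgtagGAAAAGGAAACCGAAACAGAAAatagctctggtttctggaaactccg
Ifit1: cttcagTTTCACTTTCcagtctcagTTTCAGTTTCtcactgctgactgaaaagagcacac
Bst2: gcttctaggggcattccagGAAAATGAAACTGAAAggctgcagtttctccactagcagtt
Rsad2: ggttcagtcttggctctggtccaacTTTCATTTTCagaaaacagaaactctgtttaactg
Stat2: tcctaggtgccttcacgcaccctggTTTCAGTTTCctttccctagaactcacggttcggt
B2m: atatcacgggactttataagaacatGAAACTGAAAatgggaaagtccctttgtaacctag
These windows lie at chr4:156200850-156200909 (minus strand) for Isg15, which codes for a ubiquitin-like modifier, and at chr19:34640779-34640838 (plus) for Ifit1, which binds viral RNA. They lie at chr8:71537562-71537621 (minus) for Bst2, or tetherin, and at chr12:26456538-26456597 (minus) for Rsad2, or viperin. The windows of Stat2 and B2m are at chr10:128270251-128270310 (plus) and chr2:122147523-122147582 (plus). All 3 sensors held the core, as did 6 of the 11 antiviral effectors with a promoter. Of the 7 antigen presentation genes, B2m alone held it, and among the 4 transcription factors Stat2 alone. Irf7, Irf9, Psmb9, Tap1, Tapbp and H2-K1 had neither motif in this window, which says only that these letters are absent from these 300 bases.

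**Figure D1:**
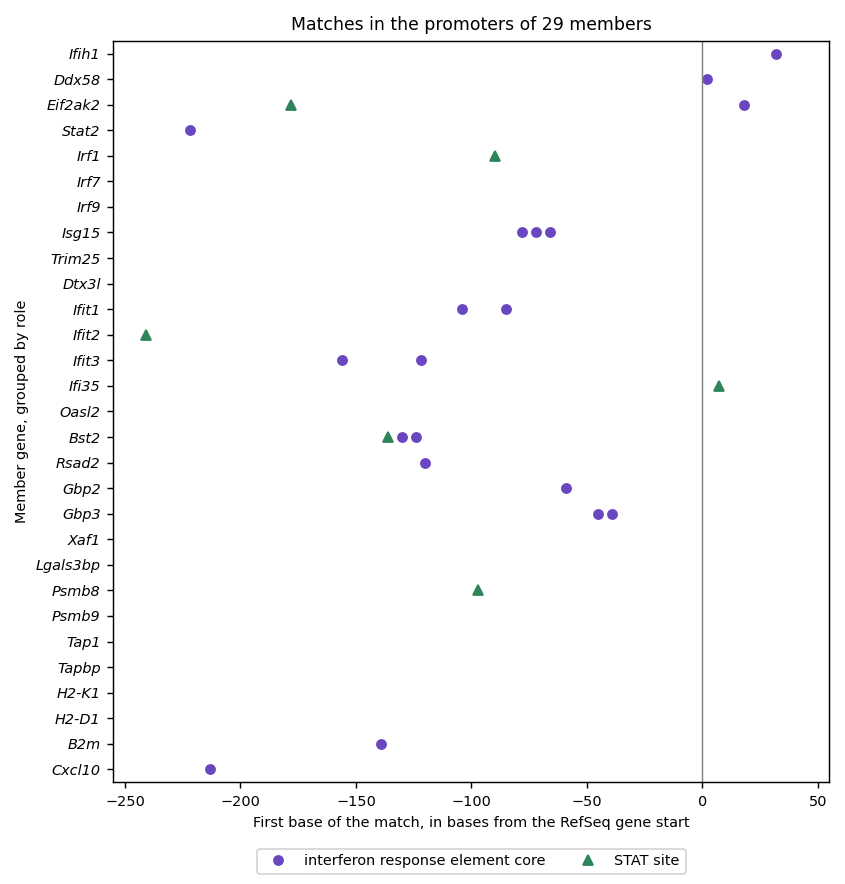
Matches to the interferon response element core and the STAT site in the promoters of 29 members. The horizontal axis gives the first base of each match in bases from the RefSeq gene start, members are grouped by role, and members with no symbol in their row had no match. The cores of Isg15, Ifit1, Bst2, Rsad2 and Gbp2 sit upstream of the start, while those of the 3 sensors (Ifih1, Ddx58 and Eif2ak2) sit just after it.

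The most abundant members belonged to antigen presentation. On a scale that divides by transcript length (estimated counts per transcript length, scaled to the same sum in each library), the mean level over the 16 groups was 757 for B2m, 225 for H2-K1, 142 for H2-D1 and 108 for Tapbp. Irf1 followed at 40.6, while the immunoproteasome subunits Psmb9 and Psmb8 were at 4.22 and 3.44. The interferon-induced chemokine Cxcl10, the antiviral enzyme Rsad2 and Usp18, which removes Isg15 from proteins, were lowest at 0.352, 0.315 and 0.264. The MHC region of GRCm38 chromosome 17 holds 5 of them between 33915899 and 34201454, in the order Tapbp, H2-K1, Psmb9, Tap1 and Psmb8, and H2-D1 lies farther along the chromosome, from 35262730 to 35267499. The annotated spans of Psmb9 and Tap1, introns included, overlap by 212 bases on opposite strands. How much of an overlap is exon was not determined for any gene here. The strand setting of the counting is not given in the sources used here.

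With dox, members rose far more often than they fell, in all 3 lines. The members were chosen with earlier results of these data known. Their counts beside the shares of all genes, here and below, are therefore a description only. A member is said to have risen or fallen where edgeR's adjusted p was under 0.05, and to be called where the change was also over 2-fold. Members were tested where their counts passed edgeR's filter on low values, which left 28 to 32 of the 33 in a comparison. In growth medium (0 h), 3 of 30 members tested were called higher, where 2.91% of all genes tested were, and 0 were called lower (1.36% of all genes), also with DESeq2. At an unadjusted p under 0.05, 16 of the 30 members passed, near the share of all genes (46.7%). At 24 h, 8 of 29 were called higher (8.02% of all genes) and 0 lower (5.13%), with 7 and 0 by DESeq2 and 26 of 29 at an unadjusted p under 0.05 (66.4% of all genes). At 48 h, 14 of 30 were called higher (5.93% of all genes) and 1 lower (8.46%), with 23 of 30 at an unadjusted p under 0.05 (61.3% of all genes). In whole cultures at 120 h, 7 of 30 were called higher (7.32% of all genes) and 0 lower (8.8%), with the same counts by DESeq2 and 21 of 30 at an unadjusted p under 0.05 (52.5% of all genes).

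In the other lines, too, most calls at 48 h were higher with dox. In C2C12 iCdh23, 12 of 32 members were called higher (13.0% of all genes) and 3 lower (17.0%), with 23 of 32 at an unadjusted p under 0.05, near the share of all genes (67.6%). In C2C12 iMcam, 10 of 30 were called higher (6.99% of all genes) and 0 lower (9.85%), with the same counts by DESeq2 and 19 of 30 at an unadjusted p under 0.05, near the share of all genes (56.0%). This fit was unpaired, although same-numbered libraries of C2C12 iMcam deviated together (correlation 0.227 to 0.419). Without replicate 3 of the untreated C2C12 iMcam libraries, 6 rather than 10 were called higher and 1 was called lower, and without dox replicate 2, 1 was called lower. The median log2 fold change of the members tested was 0.22 at 0 h, 0.71 at 24 h, 0.98 at 48 h and 0.58 in whole cultures at 120 h, and 0.69 in C2C12 iCdh23 and 0.83 in C2C12 iMcam, while that of all genes tested was between 0.0 and 0.02. In the same libraries at 48 h, markers of myotubes, proliferation and myoblasts were lower with dox. The summed level of 5 myotube markers lay between 11030 and 12180 CPM without and between 4341 and 4556 CPM with dox in C2C12 iMyoD1. It lay between 4518 and 7077 CPM without and between 28.89 and 101.8 CPM with dox in C2C12 iCdh23, and between 3335 and 8051 CPM without and between 426.6 and 1291 CPM with dox in C2C12 iMcam. The summed level of 4 proliferation markers lay between 858.4 and 873.7 CPM without and between 246.9 and 266.4 CPM with dox in C2C12 iMyoD1, between 547.9 and 838.4 and between 10.99 and 24.22 CPM in C2C12 iCdh23, and between 526.7 and 656 and between 47.19 and 98.32 CPM in C2C12 iMcam. In whole cultures at 120 h this sum was higher with dox, between 352.5 and 419.8 CPM against 180.6 to 212.6 CPM. The summed level of 4 myoblast markers at 48 h lay between 2248 and 2452 CPM without and between 1681 and 1823 CPM with dox in C2C12 iMyoD1, and was lower with dox in the other lines too. At 0 and 24 h this sum was higher with dox (740.5 to 772.4 CPM against 602.2 to 622.1 CPM, and 419 to 426.8 CPM against 368.1 to 395.2 CPM). The proliferation sum was lower with dox at 0 h (1801 to 1859 CPM against 2057 to 2072 CPM) and overlapped at 24 h. The myotube sum was higher with dox at 0 h (2.71 to 3.25 CPM against 0.608 to 1.28 CPM) and lower at 24 h (8.78 to 9.68 CPM against 10.05 to 11.6 CPM). In whole cultures at 120 h the myotube sum was between 4964 and 6510 CPM with dox and between 6576 and 10780 CPM without. In whole cultures at 120 h the share of mitochondrial counts was 6.09% to 6.98% with dox and 3.62% to 5.38% without. At 48 h it was also higher with dox, without overlap, in C2C12 iMyoD1 (3.70% to 4.12% against 3.30% to 3.47%) and C2C12 iMcam (3.43% to 4.87% against 3.02% to 3.23%), and overlapped in C2C12 iCdh23 (4.18% to 5.54% against 3.78% to 4.30%). The part of these shifts in the members' changes was not tested, and in bulk samples fewer cells of a type and less RNA per cell cannot be told apart.

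**Figure D2:**
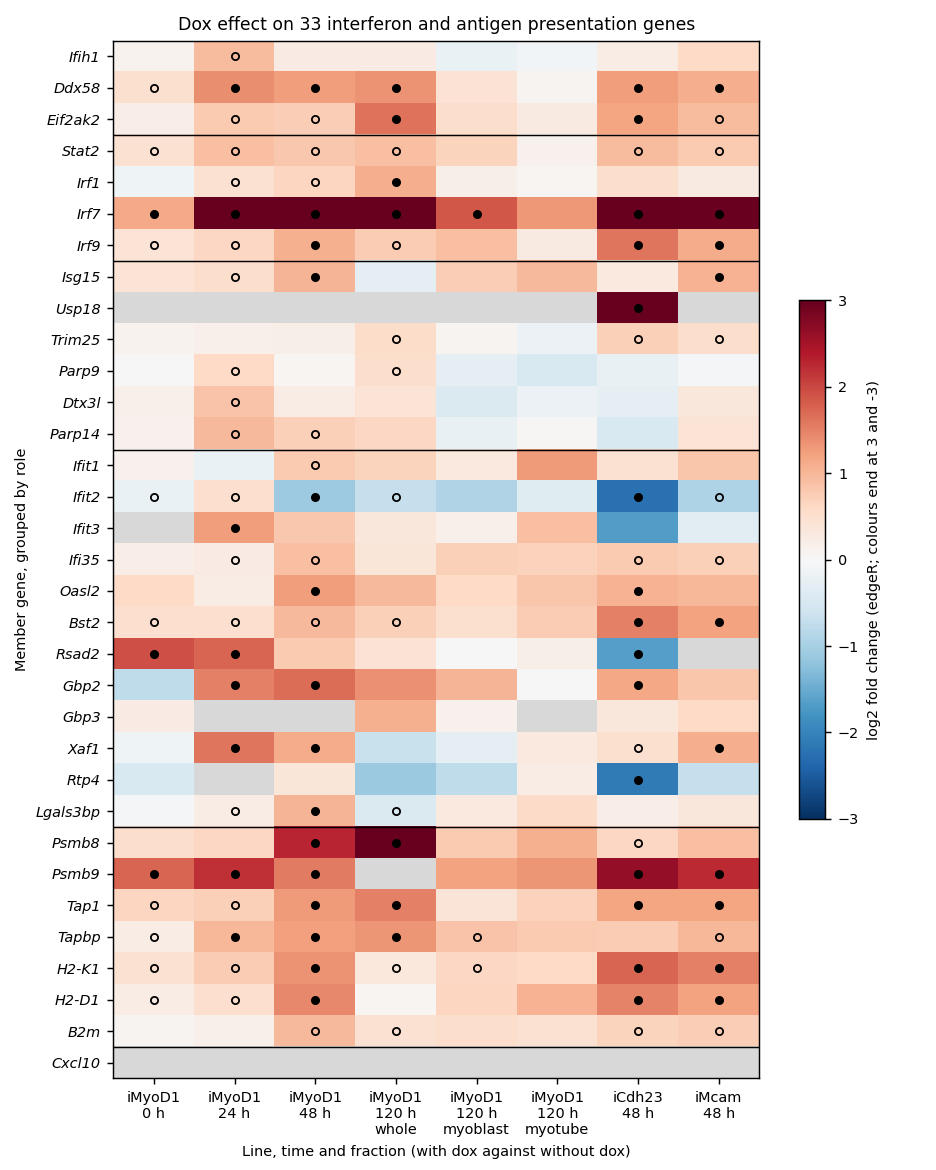
log2 fold change with dox of the 33 members (rows, grouped by role) in 8 comparisons (columns), by edgeR. Filled circles mark calls (adjusted p under 0.05 and over 2-fold), open circles an adjusted p under 0.05 with a smaller change, and grey cells genes that were not tested. Irf7 is called in 7 of 8 columns, Ifit2 is blue in 7 of 8, and the myotube-enriched column has no circle.

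Among the transcription factors, Irf7 was called most often. This gene (ENSMUSG00000025498, GRCm38 chromosome 7 from 141262706 to 141266481, minus strand) was called higher in 7 of the 8 dox comparisons. At 24 h it was at 5.22, 6.28 and 7.34 CPM with dox and at 0.332, 0.331 and 0.181 CPM without, a 22.7-fold difference (log2 fold change 4.50, SE 0.245, edgeR adjusted p = 1.95e-08). At 48 h it was at 5.20, 6.74 and 8.16 CPM with dox and at 0.712, 0.536 and 0.674 CPM without (log2 fold change 3.36, SE 0.248, edgeR adjusted p = 1.22e-06). In each of these pairs every dox library lay several-fold above every untreated one, with no overlap between the groups.

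In whole cultures at 120 h, Irf7 was at 2.49, 2.78 and 2.98 CPM with dox and at 0.438, 0.224 and 0.188 CPM without (log2 fold change 3.25, SE 0.427, edgeR adjusted p = 0.000298). In C2C12 iCdh23 it reached 24.7, 24.8 and 24.2 CPM, from 1.46, 1.53 and 0.684 CPM without dox (log2 fold change 4.33, SE 0.246, edgeR adjusted p = 1.07e-05), the highest level in the series. In C2C12 iMcam it was at 13.4, 13.3 and 10.3 CPM with dox and at 2.00, 2.27 and 0.620 CPM without (log2 fold change 2.97, SE 0.386, edgeR adjusted p = 0.000951). The smallest called difference of whole cultures was in growth medium, where Irf7 was at 4.22, 3.45 and 5.13 CPM with dox and at 1.76, 1.89 and 2.19 CPM without (log2 fold change 1.14, SE 0.227, edgeR adjusted p = 0.00137). Groups did not overlap there either. The annotated span of Irf7 overlaps that of Phrf1, on the opposite strand, by 45 bases.

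The partners in the interferon-activated complex rose as well, by less. Stat2 was at 37.4, 32.3 and 34.6 CPM with dox at 24 h and at 19.2, 19.5 and 17.8 CPM without (log2 fold change 0.91, SE 0.0719, edgeR adjusted p = 4.37e-07). It rose in 6 of the 8 comparisons, all but the fractions, with log2 fold changes between 0.45 at 0 h and 0.94 in C2C12 iCdh23, and was called in none, since each change stayed under 2-fold. Irf9 rose in the same 6 comparisons and was called in 3 of them, at 48 h in C2C12 iMyoD1 (log2 fold change 1.05, edgeR adjusted p = 4.8e-05), in C2C12 iCdh23 (1.61) and in C2C12 iMcam (1.10). In C2C12 iCdh23, Irf9 was at 33.3, 29.5 and 32.2 CPM with dox and at 11.8, 11.4 and 7.73 CPM without, so the dox libraries stood apart. The rise of Irf9 at 0 h (log2 fold change 0.42) did not pass without untreated replicate 2 (edgeR adjusted p = 0.0993) or 3 (0.0711). Irf1, a factor of the interferon gamma response, was called only in whole cultures at 120 h, at 36.3, 43.8 and 38.7 CPM with dox and 20.7, 18.0 and 16.5 CPM without (log2 fold change 1.10, SE 0.132, edgeR adjusted p = 0.000176).

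**Figure D3:**
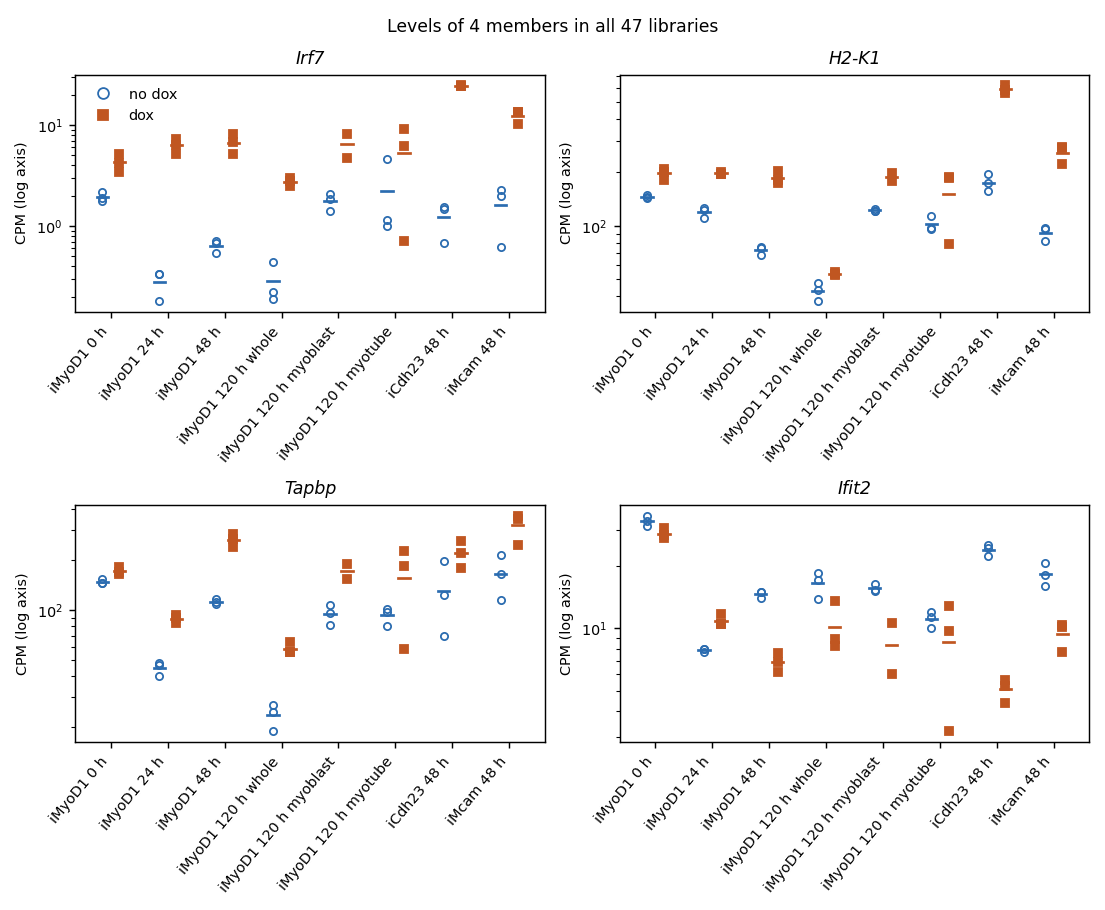
Levels of Irf7, H2-K1, Tapbp and Ifit2 in CPM, on log axes, in all 47 libraries. Circles are untreated and squares dox-treated libraries, 1 symbol per library, and bars are group means. Dox libraries of Irf7 lie above the untreated ones in 7 of 8 columns, those of Ifit2 lie below in iCdh23, iMcam and iMyoD1 at 48 h and above at 24 h, and in the myotube-enriched column the groups cross.

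The sensors of foreign RNA rose with dox, led by Ddx58, the RNA helicase RIG-I. Ddx58 was at 33.8, 39.4 and 43.8 CPM with dox at 24 h and at 14.5, 14.2 and 16.4 CPM without (log2 fold change 1.40, SE 0.0965, edgeR adjusted p = 1.36e-07). It was called in 5 comparisons, at 24, 48 and 120 h (whole) and in both other lines, with log2 fold changes from 1.09 to 1.40, and rose by 0.48 on the log2 scale at 0 h. Eif2ak2, the kinase PKR that halts translation on double-stranded RNA, was called in whole cultures at 120 h and in C2C12 iCdh23. At 120 h it was at 55.3, 45.3 and 43.8 CPM with dox and at 15.3, 14.2 and 17.3 CPM without (log2 fold change 1.62, SE 0.137, edgeR adjusted p = 2.16e-05). Ifih1, or MDA5, rose only at 24 h (4.46 ± 0.725 against 2.37 ± 0.509 CPM, SD, n = 3, log2 fold change 0.95, edgeR adjusted p = 0.000859). All 3 hold the interferon core in their promoter.

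Regulators of the response moved less uniformly. Isg15, at 10.5, 11.1 and 11.7 CPM with dox at 24 h and 5.81, 8.06 and 9.72 CPM without, rose by 0.52 on the log2 scale (SE 0.147, edgeR adjusted p = 0.00882). At 48 h it was at 3.88, 5.00 and 4.03 CPM with dox and 2.85, 1.93 and 1.66 CPM without, and was called (log2 fold change 1.02, SE 0.223, edgeR adjusted p = 0.00269), as it was in C2C12 iMcam (1.04). In whole cultures at 120 h the dox libraries held 1.63, 1.83 and 1.55 CPM and the untreated ones 1.75, 2.15 and 2.21 CPM, a difference that did not pass. The C2C12 iMcam call was lost without dox replicate 1 (edgeR adjusted p = 0.0826) or untreated replicate 2 (0.0584).

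Usp18 passed the filter in C2C12 iCdh23 alone, where it was at 0.873, 1.16 and 0.820 CPM with dox and 0.177, 0.144 and 0 CPM without (log2 fold change 3.12, SE 0.601, edgeR adjusted p = 0.00274). In all 47 libraries its highest count was 36. Trim25, a ubiquitin ligase that activates RIG-I, rose in whole cultures at 120 h (log2 fold change 0.54), in C2C12 iCdh23 (0.72) and in C2C12 iMcam (0.54), under 2-fold each time. Parp9, Dtx3l and Parp14, an ADP-ribosyltransferase complex and a relative that modulate interferon signaling, all rose at 24 h, by 0.60, 0.85 and 0.97 on the log2 scale. Parp9 also rose by 0.53 in whole cultures at 120 h, which did not pass without any of the 3 dox libraries or untreated replicate 1 (edgeR adjusted p from 0.0502 to 0.0579). The annotated spans of Parp9 and Dtx3l overlap by 682 bases on opposite strands. At 48 h Parp14 rose by 0.70, which did not pass without untreated replicate 3 (edgeR adjusted p = 0.0733).

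The antiviral effectors held both the members that rose and those that fell. Of the 11 tested at 48 h in C2C12 iMyoD1, 4 were called higher (Gbp2, Oasl2, Xaf1 and Lgals3bp, against 5.93% of all genes) and 1 lower (Ifit2), a share close to that of all genes (8.46%). Gbp2, a guanylate-binding GTPase, was at 1.96, 1.73 and 2.02 CPM with dox and 0.712, 0.375 and 0.674 CPM without (log2 fold change 1.68, SE 0.294, edgeR adjusted p = 0.000633). It was also called at 24 h (1.5) and in C2C12 iCdh23 (1.15), the latter lost without any of the 3 dox libraries or untreated replicate 2 (edgeR adjusted p from 0.051 to 0.124). Xaf1, a proapoptotic protein, was called at 24 h (log2 fold change 1.61), 48 h (1.11) and in C2C12 iMcam (1.09). The C2C12 iMcam call of Xaf1 was lost without any of the 3 dox libraries or untreated replicate 2 (edgeR adjusted p from 0.0542 to 0.124). Bst2, which tethers budding virus to the membrane, rose in 6 comparisons and was called in C2C12 iCdh23, at 19.9, 22.2 and 18.7 CPM with dox and 8.44, 7.61 and 5.38 CPM without (log2 fold change 1.5, SE 0.175, edgeR adjusted p = 0.000224), and in C2C12 iMcam (1.2). Its rise in whole cultures at 120 h (0.72) did not pass without any of the 3 dox libraries or untreated replicate 2 or 3 (edgeR adjusted p from 0.0558 to 0.107).

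Ifit2, another RNA-binding member of the Ifit family, went the other way. In C2C12 iCdh23 it was at 5.61, 5.27 and 4.35 CPM with dox and at 24.4, 25.3 and 22.4 CPM without, a 4.75-fold drop (log2 fold change -2.25, SE 0.131, edgeR adjusted p = 1.15e-05). At 48 h in C2C12 iMyoD1 it was at 7.64, 6.90 and 6.14 CPM with dox and 14.95, 15.05 and 13.96 CPM without (log2 fold change -1.08, SE 0.109, edgeR adjusted p = 1.19e-05). It also fell in C2C12 iMcam (-0.94), in whole cultures at 120 h (-0.70) and at 0 h (-0.20), and rose at 24 h, from 7.97, 7.69 and 7.95 CPM to 10.5, 10.5 and 11.7 CPM (log2 fold change 0.50, SE 0.0933, edgeR adjusted p = 0.000537). The fall at 0 h was lost when any of 5 of the 6 libraries was left out (edgeR adjusted p from 0.0532 to 0.192), and that at 120 h without dox replicate 2 or 3 or untreated replicate 2 (from 0.0773 to 0.0862).

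Ifit1 and Ifit3, its relatives, fell in no dox comparison by this test. Ifit1 was at 1.25, 1.08 and 1.67 CPM with dox at 48 h and 0.712, 0.911 and 0.629 CPM without (log2 fold change 0.79, SE 0.307, edgeR adjusted p = 0.0476), which was lost without any of 5 of the 6 libraries (from 0.0577 to 0.16). Ifit3 was called higher at 24 h only (log2 fold change 1.24), a call lost without replicate 1 of either group (edgeR adjusted p = 0.0895 and 0.0602). In C2C12 iCdh23 its log2 fold change was -1.68 and the groups overlapped (edgeR adjusted p = 0.0715). The Ifit, Gbp and H2 families hold close paralogs, so the split of reads among them is uncertain.

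Rsad2 and Rtp4 were called lower in C2C12 iCdh23. Rsad2 was at 0.374, 0.291 and 0.250 CPM with dox and 0.883, 0.861 and 1.11 CPM without (log2 fold change -1.64, SE 0.299, edgeR adjusted p = 0.00209). In C2C12 iMyoD1 it was called higher instead, at 0 h (0.943, 1.82 and 1.98 CPM against 0.243, 0.510 and 0.458 CPM, log2 fold change 1.93, edgeR adjusted p = 0.00221) and at 24 h (log2 fold change 1.75). Rtp4, a chaperone-like effector, was at 0.457, 0.388 and 0.642 CPM with dox and 2.47, 1.96 and 2.01 CPM without in C2C12 iCdh23 (log2 fold change -2.11, SE 0.276, edgeR adjusted p = 0.000403). The annotated span of Rtp4 overlaps that of Masp1, on the opposite strand, by 525 bases. The mean of Masp1 was 37.1 CPM without and 5.91 CPM with dox in the same libraries. Of the remaining effectors, Ifi35 rose under 2-fold in 4 comparisons, Oasl2 was called at 48 h (log2 fold change 1.25) and in C2C12 iCdh23 (1.05, lost without any of the 3 dox libraries or untreated replicate 2 or 3, edgeR adjusted p from 0.0503 to 0.103), and Gbp3 passed in none of the 5 comparisons in which it was tested. Lgals3bp, a secreted glycoprotein, was called higher at 48 h (log2 fold change 1.01) and fell by 0.45 in whole cultures at 120 h. That fall did not pass without any of the 3 dox libraries or without untreated replicate 1 or 2 (edgeR adjusted p from 0.0823 to 0.14).

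Among the antigen processing and presentation genes at 48 h in C2C12 iMyoD1, 6 of the 7 members were called higher (5.93% of all genes) and the last, B2m, rose by just under 2-fold. H2-K1 (ENSMUSG00000061232), an MHC class I heavy chain, was at 173, 181 and 203 CPM with dox and 75.9, 68.4 and 74.6 CPM without (log2 fold change 1.34, SE 0.0778, edgeR adjusted p = 2.35e-07). In C2C12 iCdh23 it was at 563, 621 and 582 CPM with dox and 195, 174 and 157 CPM without (log2 fold change 1.74, SE 0.108, edgeR adjusted p = 1.37e-05). In C2C12 iMcam it was at 276, 278 and 223 CPM against 96.7, 95.3 and 81.9 CPM (log2 fold change 1.52, SE 0.123, edgeR adjusted p = 0.000202). Dox and untreated libraries did not overlap in any of the 3 lines.

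H2-K1 rose in 7 of the 8 comparisons, and the sizes ran from 0.32 on the log2 scale in whole cultures at 120 h to 1.74 in C2C12 iCdh23. Its rise at 120 h (52.5, 53.7 and 54.97 CPM against 47.4, 43.6 and 37.6 CPM, edgeR adjusted p = 0.0408) did not pass without any of the 3 dox libraries or without untreated replicate 2 or 3 (from 0.0815 to 0.134). H2-D1, the other heavy chain, followed the same course up to 48 h, with log2 fold changes of 0.23 at 0 h, 0.50 at 24 h and 1.43 at 48 h, and 1.5 and 1.2 in C2C12 iCdh23 and C2C12 iMcam. At 120 h it was at 62.4, 66.4 and 69.2 CPM with dox and 61.8, 68.8 and 57.1 CPM without, and the groups overlapped (log2 fold change 0.07). The H2-D1 rise at 0 h was lost without dox replicate 2 or 3 or untreated replicate 1 or 2 (edgeR adjusted p from 0.0528 to 0.0769).

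B2m, the light chain shared by all class I molecules, was at 350, 386 and 403 CPM with dox at 48 h and 198, 190 and 190 CPM without (log2 fold change 0.97, SE 0.0693, edgeR adjusted p = 9.51e-07). At 0 and 24 h it did not pass. Psmb9, an immunoproteasome subunit, was called in all 5 comparisons outside the fractions in which it was tested, at 11.4, 14.1 and 13.1 CPM with dox and 2.12, 2.01 and 2.05 CPM without in C2C12 iCdh23 (log2 fold change 2.63, SE 0.150, edgeR adjusted p = 1.07e-05), and at 5.741, 5.471 and 6.502 CPM against 1.76, 1.53 and 2.04 CPM at 0 h (log2 fold change 1.74, SE 0.201, edgeR adjusted p = 1.56e-05). Groups did not overlap in either. Psmb8, a further subunit, was at 2.47, 2.67 and 3.78 CPM with dox at 48 h and 1.01, 0.214 and 0.584 CPM without (log2 fold change 2.29, SE 0.397, edgeR adjusted p = 0.000577). At 120 h the untreated whole cultures held 5 counts of Psmb8 over 3 libraries and the dox cultures 54, a ratio of 9.38 per library size with a 95% exact interval from 3.78 to 30.1 that covers counting error only.

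Tap1, the peptide transporter, was called at 48 h and 120 h (whole) and in both other lines, with log2 fold changes from 1.18 to 1.51, and rose by 0.63 and 0.71 at 0 and 24 h. Tapbp, or tapasin, which bridges the transporter and the heavy chain, was called at 24, 48 and 120 h (whole). At 48 h it was at 239, 283 and 266 CPM with dox and 115, 108 and 111 CPM without (log2 fold change 1.23, SE 0.0721, edgeR adjusted p = 2.53e-07). In C2C12 iCdh23 Tapbp did not pass, with 257, 219 and 178 CPM with dox and a spread from 70.0 to 196 CPM without, so the groups overlapped. The annotated span of Tapbp overlaps that of Zbtb22, on the same strand, by 3422 bases.

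Cxcl10, a T cell chemokine and the only chemokine of the group, passed the filter in none of the 2-group comparisons. In the contrast of the dox effects at 24 and 0 h, where it was tested, it did not pass (-0.65 on the log2 scale, edgeR adjusted p = 0.629). Its highest count in the 47 libraries was 17, its level never exceeded 0.867 CPM, and at 48 h in C2C12 iMyoD1 it was at 0.144, 0.0598 and 0.147 CPM with dox and 0.178, 0.214 and 0.314 CPM without. Of 6 interferon ligands looked up beside the members, Ifnb1, Ifnk, Ifnl2 and Ifnl3 had 0 counts in all 47 libraries, and Ifng and Ifne reached at most 2 and 3 counts. Genes of the Ifna family were not looked up, so these counts do not cover all interferons. A count of 0 in a library allows up to 3 counts. The receptors were present in every library, with Ifnar1 between 44.5 and 94.2 CPM and Ifnar2 between 19.2 and 65.3 CPM.

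Calls fell on members with and without the promoter element. At 48 h in C2C12 iMyoD1, 3 of 11 tested members with the GAAANNGAAA core were called higher and 11 of 16 without it, where 5.93% of all genes were. At 24 h the counts were 4 of 11 and 4 of 16 (8.02% of all genes), in C2C12 iCdh23 4 of 12 and 7 of 16 (13.0%), and in C2C12 iMcam 3 of 11 and 7 of 16 (6.99%). Among the genes with cores printed above, Isg15 was called at 48 h, and Ifit1, Bst2, Rsad2, Stat2 and B2m were not. Irf7, called there, has no core in this window.

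Without dox, members fell during the first 24 h of differentiation of C2C12 iMyoD1. From 0 to 24 h, 12 of 30 members tested were called lower (16.6% of all genes) and 1 higher (9.49%), and 8 more fell and 3 rose by less than 2-fold, with a median log2 fold change of -0.75 against 0.01 for all genes, and 24 of 30 had an unadjusted p under 0.05, near the share of all genes (75.7%). Over the same interval the summed level of proliferation markers went from between 2057 and 2072 CPM to between 541.5 and 584.3 CPM and that of 4 myoblast markers from between 602.2 and 622.1 CPM to between 368.1 and 395.2 CPM, and their part in the members' changes was not tested. Irf7 dropped from 1.76, 1.89 and 2.19 CPM to 0.332, 0.331 and 0.181 CPM (log2 fold change -2.76, SE 0.349, edgeR adjusted p = 6.57e-06). Ifit2 dropped from 35.1, 31.4 and 32.9 CPM to 7.97, 7.69 and 7.95 CPM (log2 fold change -2.06, SE 0.0875, edgeR adjusted p = 8.1e-11). Tapbp dropped from 145, 152 and 145 CPM to 40.1, 48.1 and 46.6 CPM (log2 fold change -1.69, SE 0.0694, edgeR adjusted p = 5.51e-11). The groups did not overlap for any of these 3 genes. Isg15 alone was called higher, from 4.07, 3.32 and 3.82 CPM to 5.81, 8.06 and 9.72 CPM (log2 fold change 1.09, SE 0.185, edgeR adjusted p = 0.000108), a change of 0.92, under 2-fold, without 24 h untreated replicate 3.

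From 24 to 48 h without dox, 5 of 29 members were called higher and 4 lower, both close to the shares of all genes (19.3% and 11.1%). At an unadjusted p under 0.05, 21 of 29 passed, also near the share of all genes (78.1%). These time points come from separately deposited tables, so table and time cannot be told apart. The myotube sum went from between 10.05 and 11.6 CPM at 24 h to between 11030 and 12180 CPM at 48 h and between 6576 and 10780 CPM in whole cultures at 120 h. The proliferation sum went from between 541.5 and 584.3 CPM to between 858.4 and 873.7 CPM and then to between 180.6 and 212.6 CPM, and the share of mitochondrial counts from between 4.60% and 4.86% to between 3.30% and 3.47% and then to between 3.62% and 5.38%. The part of these markers in the members' changes over time was not tested. Tapbp recovered to 115, 108 and 111 CPM (log2 fold change 1.36, SE 0.0697, edgeR adjusted p = 8.69e-10), while Isg15 dropped to 2.85, 1.93 and 1.66 CPM at 48 h (log2 fold change -1.84, SE 0.228, edgeR adjusted p = 6.79e-06) and Tap1 from 14.9, 14.98 and 15.7 CPM to 7.12, 4.93 and 6.02 CPM. Without 48 h untreated replicate 3, 3 rather than 5 members were called higher, with Ifit3 and Irf7 lost (edgeR adjusted p = 0.0922 and 0.0542). From 48 to 120 h in whole cultures, 5 of 28 were called lower, a share close to that of all genes (18.1%), namely Psmb9, Tapbp, Bst2, Tap1 and Oasl2, and 0 higher (11.7%), with the same counts by DESeq2 and 14 of 28 at an unadjusted p under 0.05 (69.8% of all genes). Without replicate 1 of the untreated 120 h whole cultures, 8 were called lower. Oasl2 did not pass without any of the 48 h libraries or without replicate 2 of the 120 h ones (edgeR adjusted p from 0.0526 to 0.139). Tapbp fell from 115, 108 and 111 CPM to 27.1, 24.6 and 18.8 CPM (log2 fold change -2.21, SE 0.130, edgeR adjusted p = 1.45e-06), and Bst2 from 11.9, 9.32 and 10.7 CPM to 3.50, 3.35 and 2.30 CPM (log2 fold change -1.76, SE 0.195, edgeR adjusted p = 4.97e-05).

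**Figure D4:**
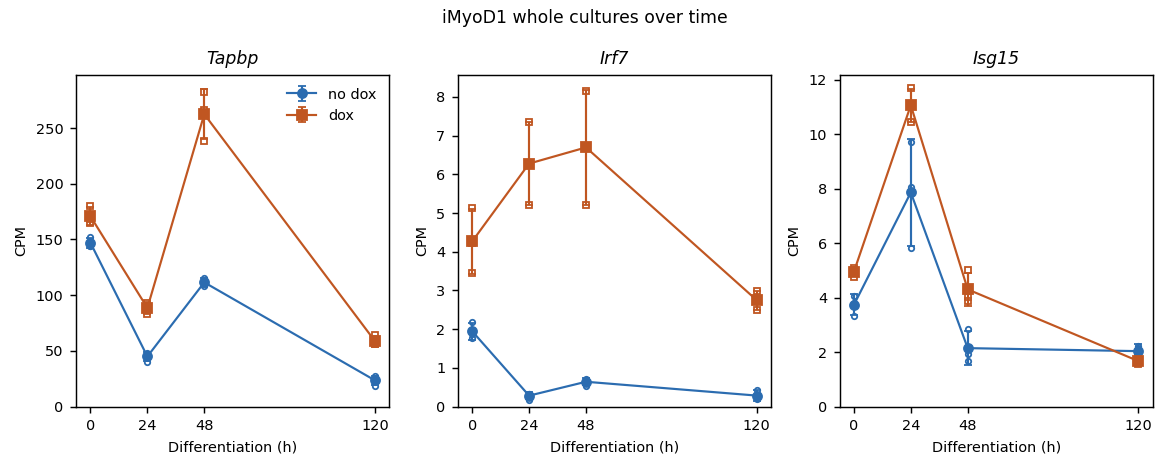
Levels of Tapbp, Irf7 and Isg15 in CPM against hours of differentiation in whole cultures of C2C12 iMyoD1. Small symbols are libraries, large symbols group means and bars the SD (n = 3), in blue without and in orange with dox. Tapbp and Irf7 stay higher with dox at every time, while Isg15 peaks at 24 h in both conditions and the 2 lines cross at 120 h.

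The dox effects were compared between time points. The difference between the effects at 24 and 0 h was called for 3 of 32 members (5.47% of all genes, either direction), Irf7, Gbp2 and Xaf1, each larger at 24 h. Irf7 differed by 3.32 on the log2 scale (SE 0.355, edgeR adjusted p = 1.94e-06). A further 11 members had a larger effect at 24 h by less than 1 on the log2 scale, among them Ddx58 (0.88) and Tapbp (0.73). Between 48 and 24 h, 4 of 31 members were called, a share close to that of all genes (13.2%), with a larger effect at 48 h for Psmb8 and Oasl2 and a smaller one for Irf7 and Ifit2. The 2 larger effects became 0 without 24 h dox replicate 2, 48 h dox replicate 3 or 48 h untreated replicate 3, and either count became 1 without most other libraries. B2m, H2-D1 and H2-K1 gained 0.82, 0.93 and 0.58 on the log2 scale. Between whole cultures at 120 h and 48 h, 5 of 31 members were called, near the share of all genes (13.1%), and the effect at 120 h was smaller for all 5. H2-D1 lost 1.36 (SE 0.123, edgeR adjusted p = 1.89e-06) and H2-K1 lost 1.02 (SE 0.132, edgeR adjusted p = 5.27e-05), while the effect on Eif2ak2 was 0.87 larger (edgeR adjusted p = 0.00183).

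The lines could be compared at 48 h. The dox effect of C2C12 iMyoD1 exceeded that of C2C12 iCdh23 for 6 of 32 members, a share close to that of all genes in either direction (16.3%), which were Ifit2, Ifit3, Rsad2, Rtp4, Parp14 and Psmb8, and 3 of these were lower with dox in C2C12 iCdh23. Without replicate 3 of the untreated C2C12 iMyoD1 libraries, 3 members rather than 6 were called, and without dox replicate 2 or 3 of C2C12 iMyoD1 a smaller effect was called for 1 or 2 members. Between C2C12 iMyoD1 and C2C12 iMcam the effects differed for 0 of 31 members by edgeR and by DESeq2 (2.44% of all genes), with 3 of 31 at an unadjusted p under 0.05 (23.6% of all genes), which does not show that they were equal. Without replicate 3 of the untreated C2C12 iMcam libraries, 1 member differed. Between C2C12 iCdh23 and C2C12 iMcam they differed for 1 of 32 members, Ifit2 (6.49% of all genes), which fell by 1.29 more on the log2 scale in C2C12 iCdh23 (SE 0.210, edgeR adjusted p = 0.0032), and a larger effect was called for 1 member without replicate 3 of untreated C2C12 iMcam. Comparisons that involve C2C12 iMyoD1 cross deposited tables, but each dox effect lies within its own table. Untreated C2C12 iCdh23 and C2C12 iMcam differed for 0 of 31 members past 2-fold by edgeR (0.146% and 0.204% of all genes higher and lower), with 7 of 31 at an unadjusted p under 0.05 (11.0% of all genes), and for 1 by DESeq2 and by edgeR without replicate 3 of C2C12 iCdh23. H2-K1 was 0.93 higher on the log2 scale in untreated C2C12 iCdh23 (SE 0.123, edgeR adjusted p = 0.0395), which was lost without any library but replicate 3 of C2C12 iCdh23 (from 0.0764 to 0.239).

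The fractions at 120 h gave weaker results. In the myoblast-enriched fraction, 1 of 31 members was called higher (1.21% of all genes) and 0 lower (1.82%), with 14 of 31 at an unadjusted p under 0.05 (22.3% of all genes) and the same counts by DESeq2. With the replicate number as a block, 3 were called higher and 1 lower. The share of all genes under the block is not given here, so these counts are a description only. Same-numbered libraries of this fraction deviated together in both pairs that exist (correlation 0.431 and 0.300). Irf7 was at 8.13 and 4.74 CPM in the 2 dox libraries and at 2.07, 1.40 and 1.84 CPM in the untreated ones (log2 fold change 1.87, SE 0.327, edgeR adjusted p = 0.0301). Tapbp (187 and 153 CPM against 108, 80.9 and 95.3 CPM, edgeR adjusted p = 0.0384) and H2-K1 (198 and 180 CPM against 122, 122 and 124 CPM, edgeR adjusted p = 0.0397) rose by less than 2-fold. The groups did not overlap for these 3 genes. Leaving out a dox library left 1 in that group, so only log2 fold changes are given for those fits. Without dox replicate 2 they were 1.42 for Irf7, 0.693 for Tapbp and 0.548 for H2-K1, and without dox replicate 3 they were 2.21, 0.991 and 0.697. None of the 3 genes passed without untreated replicate 3 (edgeR adjusted p from 0.123 to 0.163). H2-K1 did not pass without untreated replicate 1 either (0.0628). In this fraction the myotube sum lay between 3880 and 4260 CPM with dox and between 5159 and 7514 CPM without. The myoblast and proliferation sums overlapped between the groups. The part of these markers in the members' changes was not tested.

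In the myotube-enriched fraction, 0 of 30 members were called in either direction by edgeR or DESeq2, as were 0.0% of all genes, with 1 of 30 members and 79 of 14112 genes at an unadjusted p under 0.05. This fraction holds the libraries that stand against their labels. Tapbp was at 224, 58.5 and 184 CPM in dox replicates 1 to 3 and at 97.43, 101.2 and 80.1 CPM without dox, and H2-K1 at 190, 79.0 and 185 CPM against 97.3, 114 and 95.9 CPM. In both genes dox replicate 2 lay below all untreated libraries and the other 2 dox libraries above them. The median log2 ratio of the 30 members to their mean without dox was 0.63, -0.2 and 0.6 in dox replicates 1 to 3.

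Without the library labelled dox replicate 2, still 0 of 30 members were called, as were 0.0% of 14479 genes. At an unadjusted p under 0.05, 11 of 30 members and 1524 genes (10.5%) passed. The median log2 fold change of the members moved from 0.38 to 0.65. Without both libraries numbered 2, 0 members were called again (0.0% of 14160 genes, 1277 of them and 11 of 30 members at an unadjusted p under 0.05), 25 of 30 members had a log2 fold change above 0, and the median was 0.91 against 0.03 for all genes. Since the libraries left out were picked for Irf7 values that went against their labels, a larger difference follows from that choice and is a description only. Between the fractions, 0 members were called without dox (0.57% of all genes higher in the myotube-enriched fraction, 0.0143% lower) and 0 with dox (0.0% either way), with 3 of 30 and 0 of 31 members at an unadjusted p under 0.05 (16.1% and 1.28% of all genes) and 0 by DESeq2. These counts stayed at 0 without both libraries numbered 2 (0.308% of all genes higher and 0.021% lower without dox), as did the difference between the dox effects of the fractions (0.0% of all genes). With all libraries, 0 of 31 members and 1.45% of all genes had an unadjusted p under 0.05 for that difference. Without both libraries numbered 2, 8 of 30 members between the untreated fractions (14.0% of all genes), 0 of 31 between the dox-treated ones (0.576%) and 1 of 31 for the difference of the dox effects (2.64%) had an unadjusted p under 0.05, which is a description only. The share of mitochondrial counts was 6.48% to 11.3% in the myotube-enriched libraries, 4.09% to 7.27% in the myoblast-enriched ones and 3.62% to 6.98% in whole cultures at 120 h, and its part in these results was not tested.

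**Figure D5:**
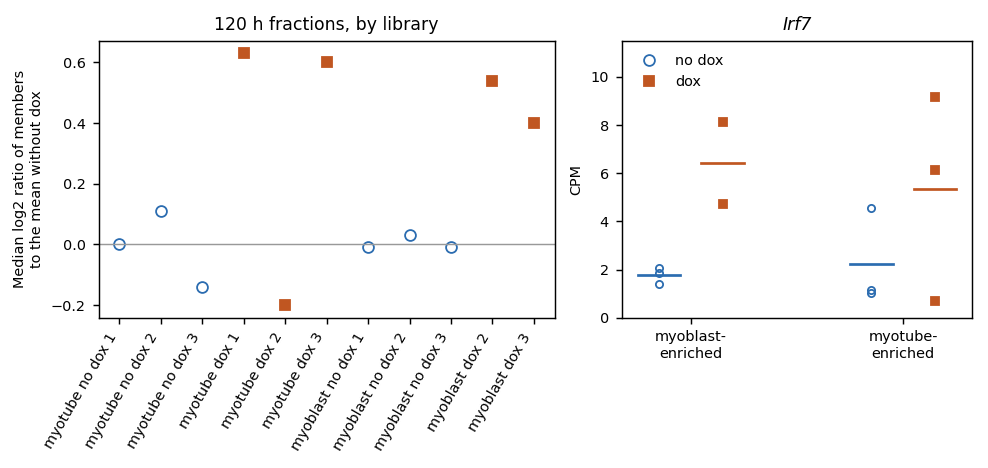
Left, median log2 ratio of the members to their mean without dox in each library of the 120 h fractions, with circles for untreated and squares for dox-treated libraries. Right, Irf7 in CPM in the same libraries, with bars at group means. In the myotube-enriched fraction the square of dox replicate 2 lies below all untreated circles, at -0.2 on the left and 0.713 CPM on the right.

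Other genes of the pathway, 90 that are not members, were looked up beside the group, and 89 of them were found in the tables. This list, too, was chosen with earlier results of these data known, so its counts beside all genes are a description only. With dox, 3 of 64 tested were called higher and 4 lower at 0 h (2.91% and 1.36% of all genes), and 13 and 4 of 63 at 24 h (8.02% and 5.13%). At 48 h 13 and 3 of 61 were called (5.93% and 8.46% of all genes), and in whole cultures at 120 h 11 and 6 of 62 (7.32% and 8.8%). In C2C12 iCdh23 the counts were 19 and 7 of 66 (13.0% and 17.0% of all genes) and in C2C12 iMcam 9 and 2 of 60 (6.99% and 9.85%). In the myoblast-enriched fraction they were 1 and 1 of 64 (1.21% and 1.82% of all genes) and in the myotube-enriched fraction 0 and 0 of 61 (0.0% both ways), also without both libraries numbered 2. Dhx58, or LGP2, a relative of RIG-I, rose from 0.941 to 5.27 CPM at 24 h (log2 fold change 2.51, edgeR adjusted p = 1e-07). Irf5, another interferon regulatory factor, rose from 0.280 to 1.49 CPM at 48 h (log2 fold change 2.40, edgeR adjusted p = 9.18e-05).

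H2-Aa, an MHC class II chain, had 0 counts in the 3 untreated C2C12 iCdh23 libraries and 37, 70 and 63 with dox, at least 15.2-fold higher when 3 counts per library are taken as the floor. Oas1a, which makes the second messenger of the antiviral RNase, had 2 counts over the untreated and 90 over the dox libraries of this line, a ratio of 36.3 with a 95% exact interval from 9.76 to 304 that covers counting error only. The lowest log2 fold changes in this line were those of Gbp6, Gbp4 and Ifi204. Gbp4 went from 12.4 to 0.672 CPM in C2C12 iCdh23 (log2 fold change -4.22, edgeR adjusted p = 3.02e-05) and from 6.71 to 1.55 CPM at 48 h in C2C12 iMyoD1 (log2 fold change -2.16, edgeR adjusted p = 1.05e-05), although its family member Gbp2 rose in both.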

How the data were processed

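PolyA RNA was sequenced from 47 C2C12 libraries in 16 groups. The authors ran the nf-core/RNAseq pipeline (Salmon and genome build mm10 per the submitters' processing notes) and deposited 3 tables of estimated counts per transcript (109617 transcripts), not scaled to depth or length. GENCODE vM21 names, lengths and positions matched 98.72% of transcripts. The strand setting is not given in the sources used here.

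Estimated counts were summed per gene and rounded. Each comparison used its 2 groups in edgeR 4.0.16 (R 4.3.3): filterByExpr, TMM factors and the quasi-likelihood F test, with p-values adjusted by Benjamini-Hochberg over all genes tested. Differences between dox effects were interaction contrasts over 4 groups, called past 1 on the log2 scale. Standard errors came from the F statistic. The tests were also run on simulated data, and the outcome is not given here. The highest and lowest members past the threshold and at least 1 member per role are given by library. Members and lists were chosen with earlier results of these data known. The results were recomputed with DESeq2 1.42.0, with RLE factors, without the filter, with all groups fitted together, with the replicate number as a block and with each library left out. Leaving out both myotube-enriched libraries numbered 2 was chosen after seeing the data. Libraries are biological replicates, and no pair was a copy (lowest chi-square per gene 3.04). Intervals cover counting error only.

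The condition for pairing same-numbered libraries was a correlation of deviations over 0.1 in each of 3 pairs. It held for C2C12 iMcam (0.227 to 0.419) and for the untreated fractions (0.117 to 0.413), and for no other comparison with 3 pairs. The main fits ignored this pairing and had no block. The fit with the replicate number as a block is given only as an alternative. The limit was missed in 1 pair for the untreated lines (0.0965) and for C2C12 iCdh23 (0.0407). The myoblast-enriched fraction has only 2 pairs (0.431 and 0.300), so the condition of 3 pairs was not met.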

Additional observations from a re-analysis of the deposited data

Results flagged for a closer look

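The dox effect differed between time points or lines, by the edgeR interaction contrast, for the members below. Between 24 and 0 h, 3 of 32 members were called (5.47% of all genes), Irf7 (3.32 on the log2 scale), Gbp2 (2.21) and Xaf1 (1.7), each with the larger effect at 24 h. Between 48 and 24 h, 4 of 31 members were called, close to the share of all genes (13.2%), with a larger effect at 48 h for Psmb8 (1.68) and Oasl2 (1.03) and a smaller one for Irf7 (-1.15) and Ifit2 (-1.59). Ifit2 rose at 24 h and fell at 48 h.

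Between whole cultures at 120 h and 48 h, 5 of 31 members were called (13.1% of all genes), all with the smaller effect at 120 h, Lgals3bp (-1.45), Isg15 (-1.31), Xaf1 (-1.78), H2-K1 (-1.02) and H2-D1 (-1.36). Between C2C12 iMyoD1 and C2C12 iCdh23 at 48 h, 6 of 32 members were called, close to the share of all genes (16.3%), Rsad2 (2.4), Psmb8 (1.65), Rtp4 (2.46), Parp14 (1.15), Ifit2 (1.14) and Ifit3 (2.48). Between C2C12 iCdh23 and C2C12 iMcam, 1 of 32 members was called (6.49% of all genes), Ifit2 (-1.29).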

How the results depend on the processing

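Of 171 single-gene results, 137 kept their direction and their side of the threshold under all alternatives. Of 1878 alternative values, 1720 did so, 158 no longer passed and 0 reversed. Members called higher in the myoblast-enriched fraction numbered 1, against 2 without the low-count filter, 0 with all groups in 1 fit, and 0 to 1 with a library left out. With the replicate number as a block, 3 were called higher and 1 lower there, and 1 higher and 1 lower between the untreated lines. Shares of all genes under the block are not given here, so its counts are a description only. The block also gave 1 member higher for C2C12 iCdh23 against C2C12 iMcam. It gave 11 rather than 10 members higher in C2C12 iMcam, one of the comparisons in which the numbers pair the libraries, and moved no count for the untreated fractions. Single results that did not pass under the block were Ifit2, Bst2, H2-K1, Parp9 and Lgals3bp in whole cultures at 120 h, Ifit2 at 0 h, Ifit1 at 48 h, Psmb8 in C2C12 iCdh23, Oasl2 from 0 to 24 h, and Oasl2 and Parp14 from 48 to 120 h. With all groups in 1 fit 15 single results did not pass, which were Ifit3 and Lgals3bp at 24 h, Ifit1 at 48 h, Irf7, Tapbp and H2-K1 in the myoblast-enriched fraction, Oasl2, Gbp2, Psmb8 and Xaf1 in C2C12 iCdh23, Isg15, Ifi35 and Tapbp in C2C12 iMcam, Ifit3 from 24 to 48 h and H2-K1 between the untreated lines. With DESeq2 10 did not pass, which were Ifit2 at 0 h, Ifit3 at 24 h, Ifit1 at 48 h, Ifit3, Oasl2 and Xaf1 from 0 to 24 h, Irf7 and Ifit3 from 24 to 48 h, and Oasl2 and Xaf1 from 48 to 120 h. Without the filter 7 did not pass, which were Ifit2 at 0 h, Ifit1 at 48 h, H2-K1 in whole cultures at 120 h, Psmb8 in C2C12 iCdh23, Oasl2 from 0 to 24 h and from 48 to 120 h, and Irf7 from 24 to 48 h. With RLE normalization only Psmb8 in C2C12 iCdh23 did not pass.

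With DESeq2, 3 members rather than 5 were higher from 24 to 48 h, 1 was higher between the untreated lines, 1 rather than 2 had a larger effect at 48 than at 24 h (1 also with RLE normalization and without the filter), 2 rather than 0 were lower in C2C12 iMyoD1 than in C2C12 iCdh23 (1 with RLE normalization), and 1 was higher in C2C12 iCdh23 than in C2C12 iMcam. With all groups in 1 fit, 0 rather than 1 was lower there. The causes were not tested.

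With a library left out, counts ranged from 6 to 13 (higher) and 0 to 1 (lower) in C2C12 iMcam, 0 to 1 higher from 0 to 24 h, 3 to 5 higher from 24 to 48 h, 4 to 8 lower from 48 to 120 h and 0 to 1 higher between the untreated lines. For the differences between dox effects they ranged from 0 to 2 higher and 1 to 2 lower at 48 against 24 h, 3 to 7 higher and 0 to 2 lower for C2C12 iMyoD1 against C2C12 iCdh23, 0 to 1 higher against C2C12 iMcam, and 0 to 1 higher for C2C12 iCdh23 against C2C12 iMcam. Members such as Usp18, Rsad2 and Cxcl10, with at most 46 counts in a library, are limited by depth.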
